A study of Mus musculus with 17 samples.

Results

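The corticotropin-releasing hormone (CRH) system genes analysed here were Crh, Crhr1, Crhr2, Crhbp and Ucn. They are 5 of the 36293 genes in the bulk count tables and 5 of the 37608 genes in the single-nucleus tables, taken by gene symbol. The study compared adult male C57BL/6 mice (C57Bl/6J in the study's methods) exposed to chronic unpredictable stress (CUS) with unstressed controls that were housed in a separate room and handled daily. CUS began at 9 to 10 weeks of age and lasted 12 days. Total nuclear RNA of the medial prefrontal cortex (mPFC) was sequenced from 4 control and 5 CUS mice labelled as postnatal day 90. Nuclei of the neocortex were profiled by sNucDrop-seq, a droplet method that counts transcripts with unique molecular identifiers (UMIs), from 4 control and 4 CUS mice labelled as postnatal day 80. The labels give tissue collection at 24 h after the last stressor, whereas the study's methods place the bulk collection after behavioural testing.

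CRH is a peptide that starts the hormonal stress response when the hypothalamus releases it onto the pituitary, and it is also made by interneurons of the cortex, where it acts locally. It binds the receptors CRHR1 and CRHR2, which couple mainly to Gs and raise cAMP. The related peptide urocortin, encoded by Ucn, binds both receptors, and the binding protein encoded by Crhbp holds CRH and urocortin away from them.

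The files contained 26188825 to 30525015 reads per bulk library and 4699542 to 12477099 UMIs per mouse in the kept nuclei. After filtering, 26699 nuclei remained of 40000 barcodes, with 20 barcodes present in more than 1 mouse. No library was excluded. The labels carry no batch, so the 2 sNucDrop-seq batches that the study's methods describe could not be placed in any fit, and their part in the results below was not tested. The study's methods report a strong batch effect in these data and included batch in the study's own model.

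Crhr1, the receptor with high affinity for CRH, was the most abundant member per kb of gene span in bulk mPFC nuclei. It lies on mm10 chromosome 11 from 104132855 to 104175523 on the plus strand. Levels in bulk, and in each comparison of CUS with control, are counts per 1000000 counts of the library after its total was multiplied by its TMM normalization factor (CPM). The level of Crhr1 was 35.4, 41.1, 41.2 and 27.7 CPM in the control mice and 53.3, 47.8, 47.5, 43.1 and 38.9 CPM in the CUS mice. All 5 CUS mice were above the control mean, but the lowest CUS mouse fell within the control range. The mean was 36.3 ± 6.39 CPM (SD, n = 4) in control and 46.1 ± 5.41 CPM (SD, n = 5) in CUS mice. The log2 change was 0.34 ± 0.12 (SE), which missed the threshold (edgeR quasi-likelihood test, adjusted p = 0.112 over all genes tested).

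Crhbp, which encodes the secreted binding protein, lies on chromosome 13 from 95431371 to 95444924 on the minus strand. Its bulk level was 3.36, 4.11, 3.25 and 3.32 CPM in control and 4.40, 4.37, 4.44, 3.97 and 4.68 CPM in CUS mice. A single control mouse, at 4.11 CPM, stood above the lowest CUS mouse, and the groups otherwise did not overlap. The log2 change was 0.32 ± 0.11 (SE) with an adjusted p of 0.128 (edgeR), from 87 to 136 reads per library.

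Crh itself was scarce, with 7 to 18 reads per library. It lies on chromosome 3 from 19693401 to 19695396 on the minus strand. Levels were 0.679, 0.606, 0.299 and 0.591 CPM in control and 0.462, 0.276, 0.505, 0.596 and 0.413 CPM in CUS mice. The groups overlapped over most of their range, and the log2 change was -0.26 ± 0.29 (SE, edgeR adjusted p = 0.645).

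Crhr2, the receptor preferred by the urocortins, lies on chromosome 6 from 55090049 to 55133016 on the minus strand. Its bulk level was 0.867, 0.876, 1.04 and 1.12 CPM in control and 0.781, 1.38, 0.875, 1.06 and 1.07 CPM in CUS mice. The CUS mice spanned the whole control range, with a log2 change of 0.07 ± 0.20 (SE, edgeR adjusted p = 0.875). Ucn (chromosome 5, 31138063 to 31138829, minus strand) had 2 reads in 1 control library, 2 reads in 1 CUS library and 0 in the others, and was not tested.

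Thus 4 of the 5 members could be tested in bulk and 0 were called at an adjusted p of 0.05, where 3.29% of all genes tested were called. CUS and control mice overlapped for each of the 4, whereas the groups did not overlap for 8.76% of all genes tested. Per kb of gene span, levels in CPM were 0.979 for Crhr1, 0.294 for Crhbp, 0.246 for Crh, 0.0234 for Crhr2 and 0.0193 for Ucn. Whether intronic reads were counted in bulk was not given in the sources used here, so this order depends on the span being the counted length. No other gene of the bulk annotation overlapped a member. In bulk tissue, fewer cells of a type and less RNA per cell cannot be told apart.

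**Figure D1:**
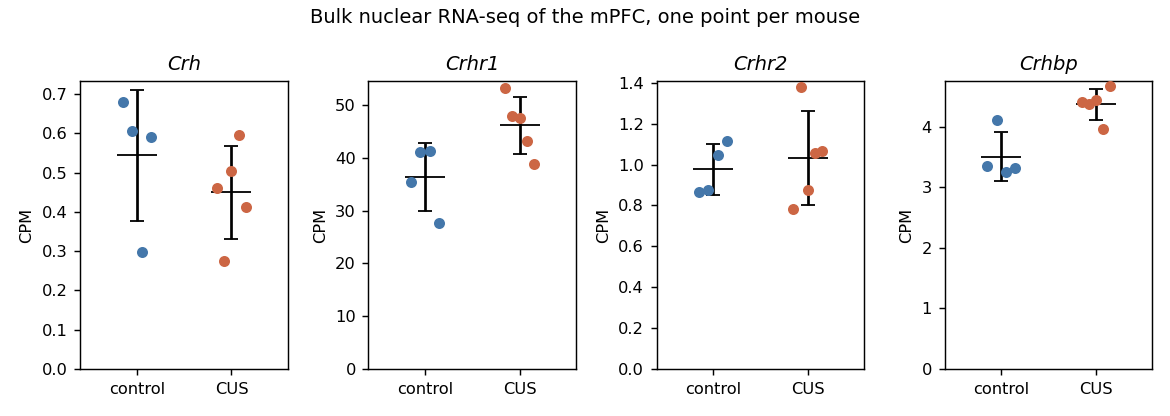
Levels in CPM (vertical axis) of Crh, Crhr1, Crhr2 and Crhbp in control and CUS mice, 1 point per mouse with the mean and SD as bars. Crhr1 and Crhbp were highest in CUS mice with some overlap, and neither passed the test.

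Markers of the cell types that hold the members, and of other cells, were read in the same bulk libraries. Over all genes tested in bulk, 3954 of 18394 had an unadjusted p under 0.05 (edgeR) and 3.29% were called, and the counts below are to be read beside these. All 5 excitatory neuron markers had positive changes, with a median log2 change of 0.24 and 1 called higher, and their summed level was 745 to 1213 CPM in control and 968 to 1059 CPM in CUS mice. Of 6 Pv interneuron markers 0 were called, 4 had an unadjusted p under 0.05 and the median log2 change was 0.25, with a summed level of 800 to 879 CPM in control and 836 to 991 CPM in CUS mice. Of 9 Vip interneuron markers 1 was called higher, with a median log2 change of 0.19 and a summed level of 1324 to 1782 CPM in control and 1313 to 1782 CPM in CUS mice. Of 7 astrocyte markers 3 were called lower in CUS mice, and the median log2 change was -0.22. All 7 oligodendrocyte markers had negative changes, with a median log2 change of -0.52, and 7 had an unadjusted p under 0.05 although 0 were called. Their summed level was 250 to 605 CPM in control and 270 to 339 CPM in CUS mice. Of 11 striatal markers 1 was called higher, 7 had an unadjusted p under 0.05 and the median log2 change was -0.77. The summed level was 777 to 1328 CPM in control and 1285 to 1528 CPM in CUS mice. A sum follows the most abundant genes of its list and need not go with the median or with the named cell type. In all neocortex nuclei, Galntl6 of the Vip list had 54928 UMIs against 4330 for Vip. Pde10a of the striatal list had 32623 against 1419 for Drd1. The summed Sst interneuron markers spanned 180 to 224 CPM in control and 197 to 212 CPM in CUS mice, 0 of 5 were called, and the median log2 change was 0.18. The markers shared by GABAergic neurons went the other way, with 0 of 4 changes positive, a median log2 change of -0.16 and 0 called. Of 5 L4 markers 2 had positive changes, with a median log2 change of -0.11 and 0 called. Of 7 Ndnf interneuron markers 1 was called higher and 1 lower, with a median log2 change of 0.0072. Of 4 claustrum markers 1 was called lower, as was 1 of 4 newly formed oligodendrocyte and 1 of 3 tested choroid plexus markers. In the L2/3, L5, L5/6, L6, oligodendrocyte precursor, microglia and endothelial lists 0 were called. The part of these differences in the values of the CRH system genes was not tested.

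The processing and signalling genes around CRH were read from lists. Of 7 prohormone processing genes 1 was called in bulk, the only call in the 4 tested lists, which held 7, 3, 12 and 20 tested genes. Over all genes tested 3.29% were called, a share that 1 call in these lists does not exceed. This gene, Pcsk1, the proprotein convertase that cleaves precursors such as that of CRH, had a lower mean level in CUS mice. Its level was 120, 120, 78.5 and 88.5 CPM in control and 69.0, 73.5, 78.1, 76.0 and 66.0 CPM in CUS mice. Every CUS mouse lay below every control mouse, although the closest values were 78.1 and 78.5 CPM and the groups overlapped when the TMM factors were left out. The groups did not overlap for 8.76% of all genes tested in bulk. The log2 change was -0.49 ± 0.12 (SE, edgeR adjusted p = 0.0399). The call was lost in 7 of 9 fits with a single mouse left out, with an adjusted p of up to 0.128. It was also lost with same-numbered mice as blocks (edgeR adjusted p = 0.113). In the neocortex nuclei summed per mouse Pcsk1 had a log2 change of -0.02 ± 0.15 (SE, adjusted p = 0.968).

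No gene was called in the other lists. Of the 8 HPA axis peptides and receptors 3 could be tested in bulk, and the smallest p values were those of Oxtr, the oxytocin receptor (log2 change -0.36), and Mc4r, a melanocortin receptor (0.38). Among 12 genes of receptor coupling, Gnal, a stimulatory G protein subunit abundant in striatum, had a log2 change of -0.50 with an edgeR adjusted p of 0.0604, and Gipc1 had 0.18. Among 20 genes of cAMP signalling, the adenylyl cyclase genes Adcy2 and Adcy7 had log2 changes of 0.26 and 0.30 (edgeR adjusted p = 0.0929 and 0.134). Median log2 changes were 0.10 for prohormone processing, 0.0027 for receptor coupling and 0.022 for cAMP signalling, beside 0.0060 for all genes tested. The other CRH family ligands, Ucn2 and Ucn3, had at most 2 reads in any library.

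The nuclei separated the members by cell class. Clusters were named from marker genes with the suffix "-like", and unnamed clusters by their 2 leading genes. Crh and Crhbp were found mostly in interneurons and Crhr1 mostly in excitatory neurons. The 4 interneuron classes (Sst, Pv, Vip and Ndnf) held 67.2% of all Crh UMIs and 79.9% of all Crhbp UMIs but 0.949% of Crhr1 UMIs, and excitatory nuclei held 91.5% of Crhr1 UMIs. These classes were built on all other variable genes, since Crh and Crhbp were held out of the clustering.

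**Figure D2:**
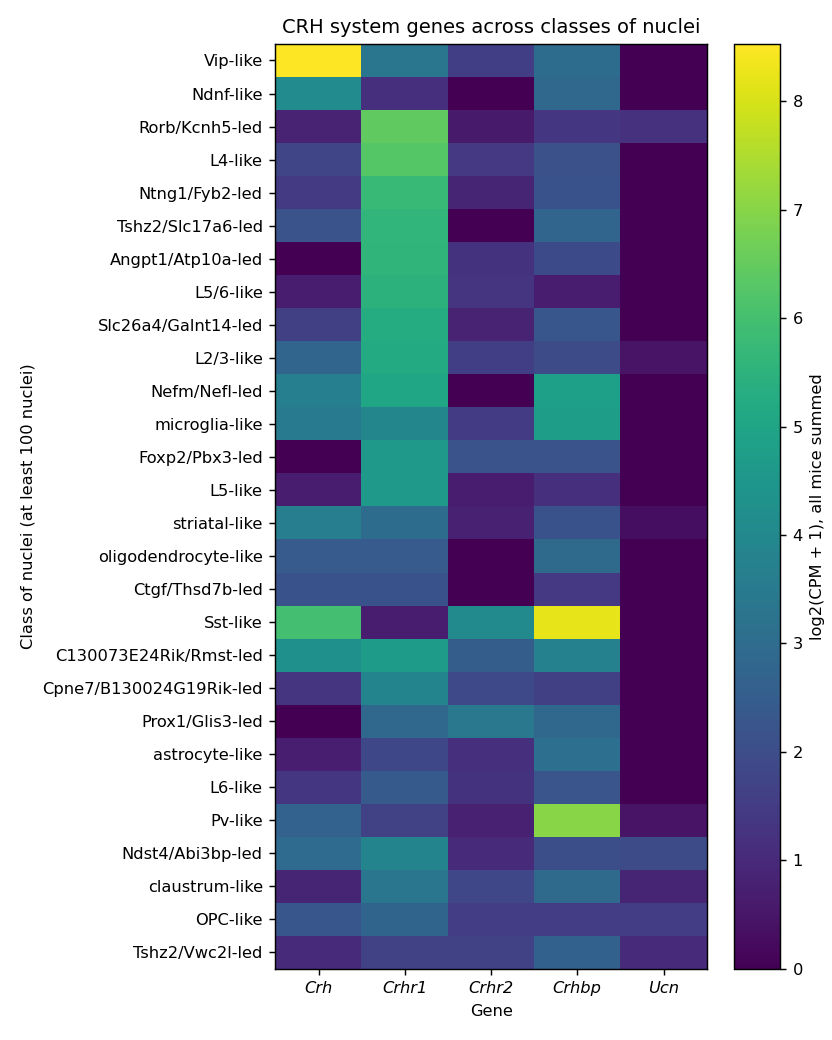
Level of each member (columns) in each class of at least 100 nuclei (rows), as log2(CPM + 1) with all mice summed. Crh is highest in Vip-like, Crhbp in Sst-like and Pv-like, and Crhr1 in Rorb/Kcnh5-led and L4-like nuclei.

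Crh was highest in Vip-like nuclei, a class of 525 nuclei led by Vip, Adarb2 and Tac2. This class was 1.97% of the nuclei and held 48.4% of Crh UMIs, at 372 ± 112 CPM (SD over 8 mice; levels by class are counts per 1000000 UMIs with no TMM factor). Sst-like nuclei followed at 60.6 ± 34.5 CPM, which was below Vip-like beyond the spread over mice. They were in turn above the C130073E24Rik/Rmst-led class at 16.8 ± 10.3 CPM. From there downwards neighbouring classes did not differ beyond their spread. At least 1 Crh UMI was found in 26.9% of Vip-like nuclei (exact 95% interval 23.1 to 30.9%, covering counting error only) at a median of 1518 UMIs, against 0.0854% of astrocyte-like nuclei at a median of 1211 UMIs.

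Within the Vip-like class Crh was found with particular neighbours. At 1000 UMIs per nucleus, Vip was detected in 86.9% of the 99 nuclei with Crh and in 54.2% of the 367 without, and the difference had this direction in 8 of 8 mice. Tac2, which encodes the neurokinin B precursor, was detected in 44.4% against 17.4%, again in 8 of 8 mice. Calb2 was at 10.1% against 8.17% but was higher beside Crh in only 3 of 8 mice, and Cck was at 27.3% against 33.8%, lower in 4 of 8. These are descriptions, since all of these nuclei were grouped on Vip and Tac2. The 5 genes whose levels over 28 classes were most like those of Crh were Btbd11, Dlx1, A530058N18Rik, Dlx1as and Vip (Pearson r from 0.788 to 0.706 on log2(CPM + 1)).

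Crhbp was highest in Sst-like nuclei, at 289 ± 86.5 CPM (SD over 8 mice), and second in Pv-like nuclei at 129 ± 19.5 CPM. Both steps exceeded the spread over mice, and the next class, Nefm/Nefl-led, was at 27.3 CPM with all mice summed, on 7 UMIs. The Sst-like class joined 2 clusters, and the smaller one of 59 nuclei, led by Npy, Chodl and Sst, reached 706 CPM against 261 CPM in the other. At least 1 UMI was found in 32.5% of Sst-like nuclei (exact 95% interval 29.3 to 35.9%) and in 0.769% of astrocyte-like nuclei.

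Npy was detected in 68.0% of the 147 Sst-like nuclei with Crhbp and in 41.0% of the 598 without at 1000 UMIs, and the direction held in 8 of 8 mice. Satb1 went the other way, at 15.0% against 30.6% in 8 of 8 mice. Of the other Sst markers, Sst and Grin3a were higher beside Crhbp in 6 of 8 mice each. Elfn1 was lower beside it in 5 and Lhx6 in 7 of 8 mice. Both Sst-like clusters, pooled here, had Npy among their leading genes. The part of the difference between these clusters in the shares was not tested. Over all nuclei, without thinning, both Crh and Crhbp were found in 18 nuclei, of 412 with Crh and 697 with Crhbp. Within the Sst-like class at 1000 UMIs, Crh was detected in 1 of the 147 nuclei with Crhbp (0.680%) and in 32 of the 598 without (5.35%), and the share was lower beside Crhbp in 7 of 8 mice. Over 28 classes the levels most like those of Crhbp included those of Sst, Cort, 1110004F10Rik and Kcnc1 (Pearson r from 0.847 to 0.728).

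**Figure D3:**
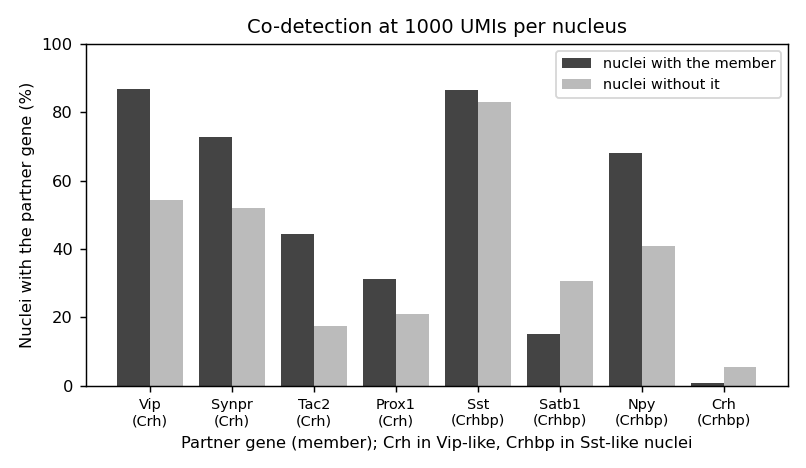
Percentage of nuclei in which a partner gene was detected (vertical axis), for nuclei with (dark bars) and without (light bars) Crh in the Vip-like class or Crhbp in the Sst-like class, at 1000 UMIs per nucleus. Vip, Tac2 and Npy were higher beside the member, and Satb1 was lower beside Crhbp.

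Crhr1 was spread over excitatory neurons. The Rorb/Kcnh5-led class was highest at 92.3 ± 20.4 CPM (SD over 8 mice), followed by L4-like nuclei at 76.6 ± 11.2 CPM. Neither these nor any other neighbouring classes in the order differed beyond their spread. The Ntng1/Fyb2-led, Tshz2/Slc17a6-led, Angpt1/Atp10a-led, L5/6-like, Slc26a4/Galnt14-led and L2/3-like classes lay between 54.7 and 36.5 CPM. Their SD was up to 29.0 CPM, in the Angpt1/Atp10a-led class on 34 UMIs. L6-like nuclei were at 4.29 CPM and Sst-like nuclei at 0.555 CPM when all mice were summed. Among the levels most like those of Crhr1 over 28 classes were those of Catsperz, Prcp, Krt12 and Igfn1 (Pearson r from 0.763 to 0.735).

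Crhr2 was sparse, with 124 UMIs in all, of which 28 came from Sst-like nuclei at 14.9 ± 8.96 CPM (SD over 8 mice). No class stood above its neighbour beyond the spread over mice. Ucn had 28 UMIs in 28 nuclei, 14 of them in the Ndst4/Abi3bp-led excitatory class. In that class the 4 control mice had 0, 1, 4 and 5 UMIs and the 4 CUS mice 0, 2, 1 and 1.

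CUS was then compared with control within the nuclei. The expression filter asked for summed UMIs above 10% of the number of nuclei. None of the members exceeded it when all nuclei were summed per mouse, so the fit on every gene with at least 1 UMI was used. In that fit, over all nuclei, 0 of 5 members were called at an adjusted p of 0.2, where 0.864% of the genes tested were called. Of the genes above the filter 0.0199% were called. In excitatory nuclei summed, where 0.0375% of the genes tested were called, Crhr1 also stayed below the filter with 1640 UMIs, so no member was tested there. In all nuclei Crhbp had the smallest p. Its level was 16.9, 13.6, 15.4 and 11.9 CPM in control and 25.2, 17.4, 14.3 and 19.2 CPM in CUS mice, with a log2 change of 0.39 ± 0.16 (SE, edgeR adjusted p = 0.508). Of the 4 CUS mice 3 lay above all controls and the other within the control range, but without the TMM factors only 2 lay above all controls. Crh had a log2 change of -0.21 ± 0.18 and Crhr1 of 0.09 ± 0.14 (SE). Among the class shares compared, that of striatal-like nuclei had the smallest p. It was 8.66 ± 1.06% of the nuclei in control and 5.11 ± 2.64% in CUS mice (SD, n = 4 each, two-sided exact permutation p = 0.0857). The groups overlapped, since the highest CUS mouse at 8.73% lay within the control range of 7.36 to 9.95%. The other classes compared had exact permutation p values of 0.171 to 0.571. Striatal markers were tested in the fit with the 10% filter, not in the fit used for the members. Of 8 tested there 0 were called, 4 had an unadjusted p under 0.05, and the median log2 change was -0.43. The part of these striatal values in the values of the members was not tested.

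Within single classes, 11 tests of a member passed the filter and 0 were called, where 0.11% of all gene by class tests were called. Crh in Vip-like nuclei was 426, 319, 540 and 375 CPM in control and 483, 286, 285 and 250 CPM in CUS mice. CUS mice 2, 3 and 4 lay below all controls and CUS mouse 1 above 3 of the 4. The log2 change was -0.33 ± 0.24 (SE, edgeR adjusted p = 0.992).

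Crhbp in Sst-like nuclei was 221, 262, 290 and 221 CPM in control and 417, 366, 175 and 354 CPM in CUS mice. CUS mouse 3 was the lowest of all 8 and the other CUS mice the highest. The smaller Sst-like cluster, led by Npy, Chodl and Sst, held 0 nuclei of CUS mouse 3 and 5 to 14 of each other mouse. The part of this in the values was not tested. The log2 change was 0.38 ± 0.21 (SE, edgeR adjusted p = 0.935). In Pv-like nuclei it was 0.18 ± 0.19 (SE).

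Crhr1 in L4-like nuclei was 69.0, 84.1, 82.7 and 96.0 CPM in control and 80.0, 79.6, 59.1 and 63.8 CPM in CUS mice, with a log2 change of -0.21 ± 0.21 (SE, edgeR adjusted p = 0.790). In the Rorb/Kcnh5-led class its log2 change was 0.22 ± 0.20 (SE). The groups overlapped in both classes. The extent of the L4-like class depended on the clustering resolution. It held 1878 nuclei and 277 Crhr1 UMIs at 1, 3053 and 602 at 0.6, and 1805 and 266 at 1.5. The Rorb/Kcnh5-led class held 1216 nuclei and 330 Crhr1 UMIs at 1. Both classes had Rorb, Kcnh5 and Pamr1 among their leading genes, and whether they formed 1 class at 0.6 was not examined. CUS was compared with control only at a resolution of 1. In the other classes tested for Crhr1 the log2 change ran from -1.02 in the Angpt1/Atp10a-led class, on 34 UMIs, to 0.16 in L5/6-like nuclei. In the interneuron classes summed, Crh had a log2 change of -0.35 ± 0.21 and Crhbp of 0.29 ± 0.16 (SE), and 0% of the genes tested there were called.

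**Figure D4:**
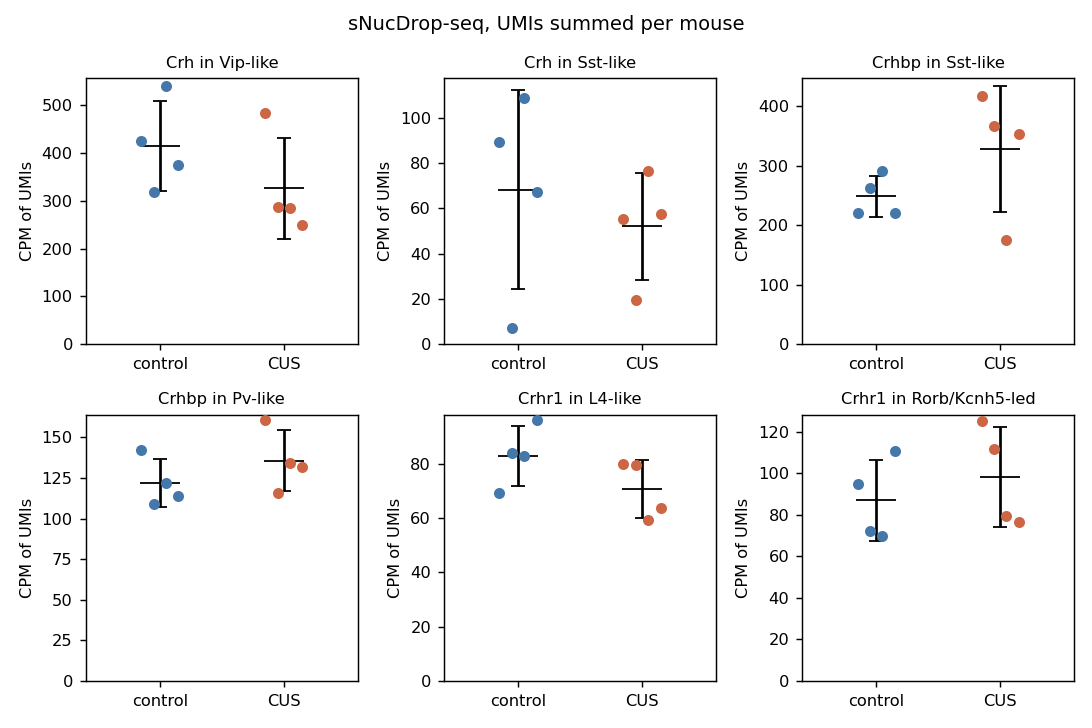
CPM of UMIs (vertical axis) for Crh, Crhbp and Crhr1 in the classes where each is highest, 1 point per mouse with the mean and SD as bars. Control and CUS mice overlap in all 6 panels.

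The share of nuclei with at least 1 UMI of a member was compared in 17 exact permutation tests, in which 4 against 4 mice cannot go below p = 0.0286. Crh in Vip-like nuclei reached it: the share was 26.8, 27.4, 39.1 and 31.0% in control and 24.1, 24.6, 25.5 and 20.5% in CUS mice. All CUS mice were below all controls, with means of 31.0 ± 5.65% and 23.6 ± 2.20% (SD, n = 4 each; two-sided exact permutation p = 0.0286, 0.486 after Benjamini-Hochberg adjustment over the 17 tests). With every nucleus thinned to 1000 UMIs the means were 22.7% and 19.1%, the groups overlapped and the exact permutation p was 0.429. With a mouse left out the difference of the unthinned means ran from -8.84 to -4.74 percentage points, the smallest being that without control mouse 3, against -7.42 with all mice. The thinning left out 23 control and 36 CUS nuclei. The share of Vip-like nuclei with Crh was not compared without the doublet filter. The other shares had exact permutation p values of 0.0857 and above. No share passed after adjustment, but the adjustment could not decide this. A single share at the lowest possible p of 0.0286 stays at 0.486 over the 17 tests.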

How the data were processed

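Bulk values are raw counts of reads per gene, made by the authors from reads mapped to mm10 with STAR, and sNucDrop-seq values are raw UMI counts per gene and barcode as deposited. The annotation of the bulk files and their intron handling were not given in the sources used here. The gene members and lists were chosen with earlier results of these data known.

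Counts were tested with edgeR 4.0.16 in R 4.3.3 (TMM factors, quasi-likelihood test, Benjamini-Hochberg adjustment over all genes). The adjusted p threshold was 0.05 in bulk, on genes kept by filterByExpr, and 0.2 in nuclei, on UMIs summed per mouse. A filter in nuclei kept genes whose summed UMIs exceeded 10% of the number of nuclei. In all nuclei summed, where no member passed that filter, genes with at least 1 UMI were used instead, a choice made after this was seen. Printed CPM used all counts of a library, with TMM factors in bulk and in comparisons of CUS with control, and without them for levels by class. DESeq2 1.42.0 was an alternative. Steps were tested on simulated data. Bulk libraries of a group differed beyond sampling noise. Each mouse is 1 replicate, and same-numbered control and CUS mice are not said to belong together.

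Nuclei had 600 to 5000 genes, under 5% mitochondrial UMIs and a Scrublet score (scanpy 1.11.5) of at most 0.2, which removed 15.2%. The score removed 12.7 to 14.6% in control and 15.6 to 18.1% in CUS mice, so the groups did not overlap. The part of this difference in the results was not tested within classes. The kept nuclei were clustered with Seurat 5.3.0 at a resolution of 1. A cluster took a class name from at least 3 markers enriched 1.5-fold in 5% of its nuclei, of which 1 was among its 10 leading genes. A cluster counted as excitatory with at least 4 times as much Slc17a7 as Gad2, and as GABAergic in the converse case. These cut-offs were set after the clusters had been seen, without regard to condition. The excitatory nuclei summed left out the claustrum-like class. The interneuron classes summed were the Sst-like, Pv-like, Vip-like and Ndnf-like classes only, without the striatal-like and other GABAergic clusters. A ratio of 3 was also tried after seeing which cluster failed at 4, and 4 was kept; it concerned 1 cluster of 452 nuclei. Named genes were the members, Ucn2, Ucn3, each listed gene called in bulk or otherwise the 2 of smallest p, the 5 genes most like a member over classes (some are not reported here), and class markers. Co-detection partners were the Vip or Sst markers and some other members. Npy, Chodl and Nos1, which are not in the Sst list, were added for Crhbp in Sst-like nuclei. The partners printed were chosen after their values were seen.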

Additional observations from a re-analysis of the deposited data

Results flagged for a closer look

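Of 38 groups of mice checked for a member, 4 held a mouse far from the others, where chance gives about 1 in 20. In bulk, the highest control mouse for Crhbp was at 4.11 CPM, against 3.36 for the next. In all nuclei summed, 1 CUS mouse had 16.1 CPM of Crh, against 9.04 for the next, and the same was seen in Vip-like nuclei, at 483 against 286 CPM. For Crhr1 in L5/6-like nuclei, 1 control mouse was at 49.9 CPM, against 40.7 for the next.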

How the results depend on the processing

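No member was called in 286 refits of 22 results, which covered the likelihood ratio test, DESeq2 (which gave no adjusted p for Crh in bulk), other filters and normalizations, the replicate block and each mouse left out. The smallest adjusted p was 0.0577, for Crhr1 in bulk with the replicate block (log2 change 0.41). For Crhr1 in bulk the adjusted p was 0.0610 with the likelihood ratio test and 0.0678 with DESeq2. It was 0.0895 without TMM factors, 0.0906 without the filter on low counts and 0.0592 to 0.209 with a mouse left out (edgeR quasi-likelihood test). Not every pair of same-numbered mice deviated together (correlations of 0.025 to 0.15 in bulk; in nuclei 0.36 and 0.40 for numbers 1 and 3, -0.067 and -0.45 for 2 and 4), and no label ties them, so the numbers were not taken as pairs. Pcsk1 was no longer called with the block (-0.43, adjusted p = 0.113) or without any 1 of 7 mice, control 1 and 2 and CUS 1 to 5, with log2 changes of -0.60 to -0.40 over all left-out mice. Without control 3 or 4 the call held.

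Genes called in bulk numbered 606, against 1330 with the likelihood ratio test, 1402 with DESeq2, 238 with the block and 133 to 1508 with a mouse left out. In all nuclei 315 were called, against 1 with the 10% filter, 9 with the likelihood ratio test, 1 with DESeq2 and 1 with filterByExpr; the cause was not tested.

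Changes of sign were seen only in differences that were not called. They were 0.019 for Crhr2 in all nuclei without the doublet filter, -0.0021 for Ucn in all nuclei with DESeq2 and -0.039 for Crhr1 in the Ntng1/Fyb2-led class with the replicate block (log2 changes). With a mouse left out, log2 changes ran from -0.046 to 0.16 for Crhr2 in bulk and from -0.28 to 0.038 in all nuclei, from -0.38 to 0.53 for Ucn in all nuclei and from -0.77 to 0.21 for Crh in Sst-like nuclei. For Crhr1 they ran from -0.041 to 0.29 in L2/3-like, -0.089 to 0.33 in Slc26a4/Galnt14-led and -0.30 to 0.27 in Ntng1/Fyb2-led nuclei. Without a change of sign, the log2 changes of Crh with a mouse left out ran from -0.46 to -0.14 in bulk, -0.50 to -0.062 in all nuclei, -0.62 to -0.21 in the interneuron classes and -0.60 to -0.14 in Vip-like nuclei. For Crhbp they were 0.22 to 0.51 in all nuclei, 0.18 to 0.41 in the interneuron classes, 0.23 to 0.59 in Sst-like and 0.090 to 0.24 in Pv-like nuclei. For Crhr1 they were 0.0078 to 0.16 in all nuclei, -0.30 to -0.14 in L4-like, 0.087 to 0.35 in Rorb/Kcnh5-led, 0.10 to 0.21 in L5/6-like and -1.29 to -0.51 in Angpt1/Atp10a-led nuclei. Genes called in all nuclei then ranged from 69 to 1322.

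For the shares (percentage points, CUS minus control), thinning to 1000 UMIs gave 0.0996 for Crhr1 in all nuclei, -0.0550 for Crhr2 in excitatory and -0.0391 for Crhbp in Sst-like nuclei, and leaving doublets in gave 0.0423 for Ucn in all nuclei. With a mouse left out, an alternative added after the data were seen, shares in excitatory nuclei ran from -0.0738 to 0.237 for Crh, -0.0781 to 0.0514 for Crhr2, -0.0784 to 0.289 for Crhbp and -0.123 to 0.0116 for Ucn. They ran from -0.592 to 0.0183 for Crhr1 and -0.0511 to 0.0272 for Ucn in all nuclei, -1.34 to 0.285 for Crhr2 in Sst-like and -0.0151 to 2.18 for Crhbp in the interneuron classes.

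A Slc17a7 to Gad2 ratio of 3, tried after seeing the clusters, left Crhr1 at 1642 UMIs in excitatory nuclei, under the filter as it was at a ratio of 4 with 1640 UMIs, so no member test there was gained or lost. Of the members, Ucn, Crhr2 and Crh had the fewest counts in bulk and in nuclei. The effect of depth was examined only in the thinned shares.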
